A study of Mus musculus with 4 samples.

Results

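Antisense genes are non-coding genes transcribed from the strand opposite a protein-coding gene, here called the host, and the annotation GENCODE M21 on the mouse build GRCm38 (mm10) holds 2959 of them. The set described here, called stand-alone antisense genes, took those of which every basic transcription start site (TSS) lay over 2 kb from every basic TSS of a protein-coding gene. It had 1946 members. The set they were compared with, called promoter-sharing antisense genes, had a basic TSS within 1 kb of a coding TSS and numbered 846, and the other 167 antisense genes lay in between. A region was a peak of acetylation of histone H3 at lysine 27 (H3K27ac) with any base within 1 kb of a member's TSS, and 640 of the 88930 peaks of the replicated list were regions of stand-alone antisense genes. The rule for members used the annotation alone and no measured value, though it was set with earlier results of these data known. H3K27ac was mapped by ChIP-seq in tissue labelled as layer of hippocampus, from adult male B6CASTF1/J mice aged 2 months. These animals are F1 hybrids of C57BL/6 and CAST, and all samples had the same genotype, age and tissue, with no treated arm. The 4 samples came from 2 pools of 7 biosamples each, C and D, with 2 technical replicates a pool, and the pools are the biological replicates. A peak list was deposited for each pool, for both pools together, and for peaks replicated in them.

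H3K27ac is laid down by the acetyltransferases CBP and p300 and marks both active promoters and active enhancers, so a peak by itself does not say which of these a site is. Antisense transcripts arise either from the divergent promoter of a coding gene or from starts of their own within or beyond its body, and some are known regulators in cis, such as the imprinted Kcnq1ot1 and Airn, transcribed from the paternal allele. ChIP-seq peaks do not show which strand was transcribed. In tissue, a weak peak from many cells and a strong peak from few cannot be told apart. At the defining genes of hippocampal excitatory neurons all 8 had a promoter peak, as did all 3 each of astrocytes, oligodendrocytes and microglia, against 0 of 6 of other tissues.

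The starts of 7 stand-alone antisense genes show the range of sequence behind the results. Each stretch runs from 150 bases before to 50 bases after the TSS nearest to the peak summit (for Dlx6os1, which had no peak, the 5′-most TSS), 5′ to 3′ on the strand of the antisense gene, from the GRCm38.p6 reference, with capitals marking each CpG. Frmd8os, at chr19:5845473-5845672 (+ strand), had the highest signal of all members and holds 10 CpGs in this stretch. 2900060B14Rik, at chr1:118459218-118459417 (- strand) in intron 2 of Clasp1, holds 14. Rab10os, at chr12:3235765-3235964 (+ strand) beyond the 3′ end of Rab10, holds 19, and its peak summit lay 7 bp upstream of the TSS. Chn1os3, at chr2:73596376-73596575 (+ strand) beyond the 3′ end of Chn1, had a strong peak with 4 CpGs. Kcnq1ot1, at chr7:143296500-143296699 (- strand) in intron 11 of Kcnq1, holds 8. Airn, at chr17:12741248-12741447 (+ strand) in intron 2 of Igf2r, holds 7. Dlx6os1, at chr6:6871543-6871742 (- strand), holds 2 and had no peak.
Frmd8os: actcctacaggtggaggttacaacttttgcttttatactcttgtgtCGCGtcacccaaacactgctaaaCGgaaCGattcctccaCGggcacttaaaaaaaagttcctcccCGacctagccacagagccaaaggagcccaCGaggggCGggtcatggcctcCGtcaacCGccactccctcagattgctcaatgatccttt
2900060B14Rik: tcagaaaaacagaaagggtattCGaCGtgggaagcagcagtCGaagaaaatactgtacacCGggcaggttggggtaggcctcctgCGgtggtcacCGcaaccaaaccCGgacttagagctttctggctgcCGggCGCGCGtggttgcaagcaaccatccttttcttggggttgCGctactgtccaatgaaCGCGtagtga
Rab10os: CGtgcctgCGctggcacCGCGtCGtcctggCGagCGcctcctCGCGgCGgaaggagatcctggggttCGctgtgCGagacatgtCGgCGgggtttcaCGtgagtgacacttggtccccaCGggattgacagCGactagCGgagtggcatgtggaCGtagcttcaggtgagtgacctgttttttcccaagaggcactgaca
Chn1os3: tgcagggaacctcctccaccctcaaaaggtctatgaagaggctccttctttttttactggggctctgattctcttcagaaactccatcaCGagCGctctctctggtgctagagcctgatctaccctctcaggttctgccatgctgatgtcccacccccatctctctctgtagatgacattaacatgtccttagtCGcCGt
Kcnq1ot1: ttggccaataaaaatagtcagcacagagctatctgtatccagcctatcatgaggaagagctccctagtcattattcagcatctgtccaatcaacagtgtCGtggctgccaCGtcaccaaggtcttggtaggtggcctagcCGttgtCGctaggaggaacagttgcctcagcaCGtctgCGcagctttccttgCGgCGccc
Airn: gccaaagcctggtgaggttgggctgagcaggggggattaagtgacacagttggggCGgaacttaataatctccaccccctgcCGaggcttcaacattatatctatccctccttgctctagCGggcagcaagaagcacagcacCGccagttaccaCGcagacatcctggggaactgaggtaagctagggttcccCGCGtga
Dlx6os1: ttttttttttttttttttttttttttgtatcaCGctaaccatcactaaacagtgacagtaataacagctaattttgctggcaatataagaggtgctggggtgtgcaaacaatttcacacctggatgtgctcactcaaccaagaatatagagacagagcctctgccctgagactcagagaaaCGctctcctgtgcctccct

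Whether antisense starts with no coding promoter beside them carry the mark was asked first. A replicated peak lay at 522 of the 1946 stand-alone antisense genes (26.8%, 95% Wilson interval 24.9 to 28.8%), against 651 of the 846 promoter-sharing ones (77.0%, 74.0 to 79.7%). Over all 55413 annotated genes the share was 33.8%, so the stand-alone members lay below the background and the promoter-sharing ones above it. The difference, stand-alone minus promoter-sharing, was -50.1 percentage points (95% Newcombe interval -53.4 to -46.5). All such intervals cover the counting of genes only, and no p-value is given, because genes are not replicates of a condition. The stand-alone antisense share was 9.88 points higher (7.71 to 12.1) than that of the 5419 lincRNA genes picked by the same distance rule, of which 918 (16.9%) had a replicated peak. Part of this gap comes from lincRNA genes on the Y chromosome, where only 1 stand-alone antisense gene lies. On the autosomes alone the shares were 27.2% of 1917 stand-alone antisense genes and 18.9% of 4779 lincRNA genes. Antisense genes 1 to 2 kb from a coding TSS were in between, at 103 of 167 (61.7%).

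Both pools gave this order. In pool C a peak lay at 528 stand-alone antisense genes (27.1%) and at 661 promoter-sharing ones (78.1%), with 34.3% of all genes. In pool D it lay at 369 stand-alone antisense genes (19.0%) and at 617 promoter-sharing ones (72.9%), with 30.1% of all genes. The stand-alone share differed more between the pools than the promoter-sharing share did. The pool D calls were nearly all within the pool C calls: 363 stand-alone genes had a peak in both lists, which is 68.8% of the stand-alone calls of pool C and 98.4% of those of pool D. For promoter-sharing genes the 616 common calls were 93.2% of the pool C calls and 99.8% of the pool D calls. The depth of either pool is unknown, since read totals were not used here, and a start without a peak is one where none was detected at this depth.

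**Figure D1:**
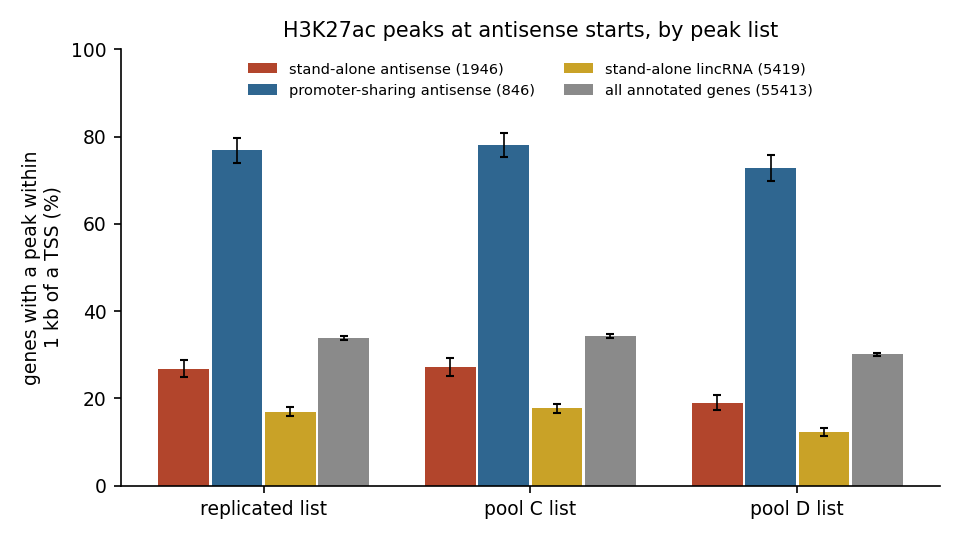
Percentage of genes with a peak within 1 kb of a TSS (vertical axis) in the list of replicated peaks and in those of the pools, for stand-alone antisense, promoter-sharing antisense and stand-alone lincRNA genes and for all annotated genes. Bars are shares and whiskers 95% Wilson intervals. Stand-alone antisense genes stand at 26.8%, 27.1% and 19.0% in the replicated, pool C and pool D lists, below the promoter-sharing genes and above the lincRNA genes in each.

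The regions of stand-alone antisense genes had lower signal than those of promoter-sharing ones and were narrower at each quartile, with the smallest gap at the upper one. Signal is the authors' own value for each peak, on a scale not given in the sources used here, and is compared only within a list. Its quartiles were 3.70, 5.33 and 8.54 over the 640 stand-alone regions and 7.75, 12.9 and 18.3 over the 788 promoter-sharing regions, with 3.24, 4.28 and 6.71 over all replicated peaks. The median stand-alone region was at percentile 65.1 of the replicated list by signal, against 90.7 for promoter-sharing regions. In pool C the medians were 6.15 and 15.1 for stand-alone and promoter-sharing regions, and in pool D 5.03 and 9.23, so each pool list alone gave the same order. Width quartiles were 744, 1360 and 2598 bp for stand-alone regions, against 974, 1700 and 2616 bp for promoter-sharing ones. The widest classes were about equally frequent: 47 stand-alone regions (7.34%) and 50 promoter-sharing ones (6.35%) spanned 5 kb or more, against 2.16% of all replicated peaks. A window around a TSS meets wide peaks more readily than narrow ones by construction.

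**Figure D2:**
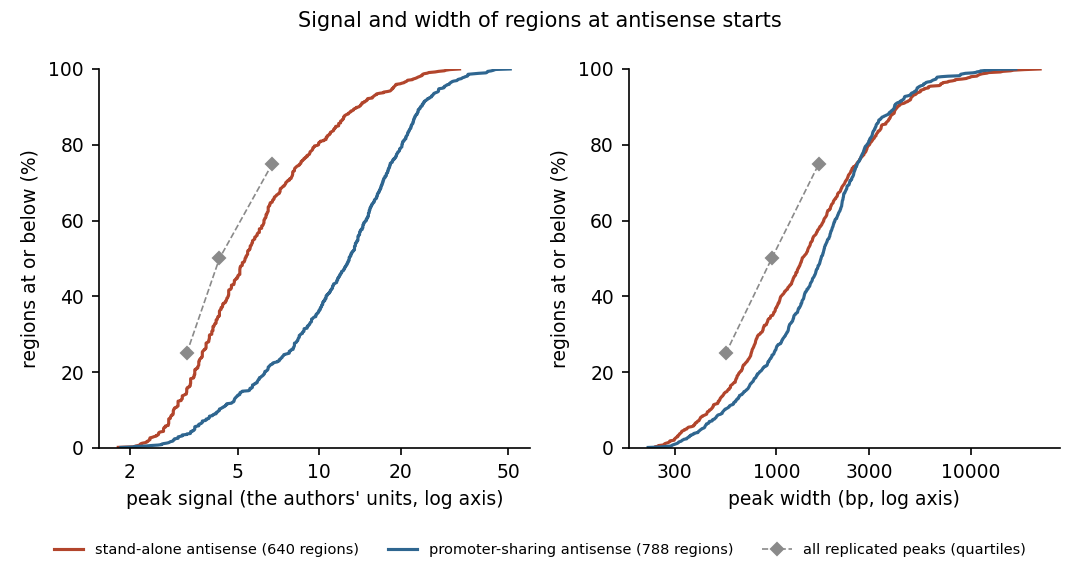
Cumulative percentage of regions (vertical axes) by peak signal in the authors' units (left, log axis) and by peak width in bp (right, log axis), for 640 stand-alone and 788 promoter-sharing antisense regions, with diamonds at the quartiles of all replicated peaks. The signal curves are apart over most of their length, with medians of 5.33 and 12.9 for stand-alone and promoter-sharing regions, while the width curves meet near the upper quartile of 2598 and 2616 bp.

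Some stand-alone regions also served another start. Although every stand-alone TSS was over 2 kb from a basic coding TSS, 37 of the 640 regions (5.78%) reached within 1 kb of such a TSS. These 37 had a median signal of 14.4 and a median width of 4601 bp, and 40.5% of them spanned 5 kb or more. A further 112 regions (17.5%) lay within 1 kb of a start of a non-basic coding transcript, and 34 (5.31%) of a start of another non-coding gene. The 469 regions (73.3%) at no other annotated start had a median signal of 4.86 and a median width of 1228 bp. The 586 regions over 2 kb from every coding TSS had a median signal of 5.09 and a median width of 1282 bp. The 70838 replicated peaks that far from coding TSSs had medians of 3.92 and 862 bp. No region was shared between the stand-alone and promoter-sharing sets.

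Stand-alone starts were less often covered by their peak. The TSS lay inside the region for 58.9% of stand-alone regions, against 75.1% of promoter-sharing ones. The summit was within 250 bp of the nearest antisense TSS in 29.5% of stand-alone regions, against 43.0% of promoter-sharing ones, and the median distance was 495 bp and 304 bp for the 2 sets. Of the stand-alone regions, 359 (56.1%) were overlapped over at least 50% of their length in both pool lists, against 658 promoter-sharing ones (83.5%). Another 207 stand-alone regions (32.3%) were so overlapped in pool C alone, 9 in pool D alone and 65 (10.2%) in neither.

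Nearly all stand-alone members had a host, which was taken as the opposite-strand coding gene with the longest overlap. A host was found for 1807 members, on 1566 different genes, and 139 members had none. Hosts were long genes, with a median length of 69569 bp against 17425 bp for all coding genes, and 1200 of them (76.6%) had a promoter peak, against 60.5% of all coding genes. With a marked host promoter, 438 of 1405 members (31.2%) had a peak, and with an unmarked one 55 of 402 (13.7%), a difference of 17.5 points (13.1 to 21.4). By the lists of single pools it came to 17.6 points for C and 12.2 points for D (8.49 to 15.6). For 33 of the 438 the strongest peak was also one of the host promoter, which can fall in the marked group only. When only peaks whose summit lay within 1 kb of the TSS were counted, the difference was 8.37 points (4.17 to 12.2). By that rule 1 peak cannot serve both starts.

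Marked hosts also held more peaks along their bodies. Of the host bases over 2 kb from a coding TSS, 18.2% lay within 1 kb of a replicated peak in marked hosts, against 4.51% in unmarked hosts. At the 5′-most TSS alone, 429 of 1397 members in marked hosts (30.7%) had a peak, where the mean share of their own host's body near a peak was 21.9%. In unmarked hosts it was 51 of 392 members (13.0%), with a mean host share of 5.60%. Over all 1789 members whose host has such bases, 480 (26.8%, 24.8 to 28.9%) had a peak at that TSS, against a mean host share of 18.3%. Antisense starts were thus within 1 kb of a peak more often than the average base of the same hosts. The bases all lie inside the hosts, but not all of these starts do. Of the 1807 hosted members, 299 began beyond the host's 3′ end and 5 upstream of its start.

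By distance of the 5′-most TSS from the nearest coding TSS, the share of members was above that of the host bases in all 6 classes. From 2 to 5 kb it was 31.1% of members, against 26.1% of the host bases at that distance, and the interval of the share (25.4 to 37.4%) includes that of the bases. In the other 5 classes the interval lay above the bases. Host bases were pooled here, so long hosts weigh more, and members that start outside their host are included. Between 25 and 50 kb the shares were 26.7% of members (22.5 to 31.3%) and 18.5% of bases, and over 100 kb 22.9% (18.3 to 28.3%) and 12.9%. With regions at any TSS grouped by the nearest TSS of the member, the median signal was 7.69 at 2 to 5 kb and 4.63 over 100 kb. Regions that also reach within 1 kb of a coding TSS, which had high signal, are not taken out of these medians. The median distance to the nearest coding TSS was 24117 bp for members with a peak and 25859 bp for those without.

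**Figure D3:**
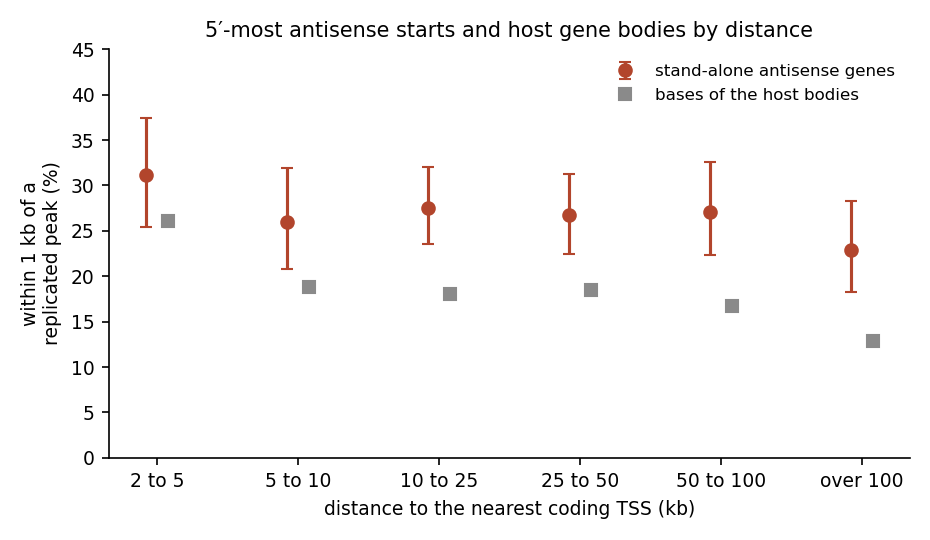
Percentage within 1 kb of a replicated peak (vertical axis) by distance to the nearest coding TSS in kb, for the 5′-most TSS of hosted stand-alone antisense genes (circles, whiskers 95% Wilson intervals) and for bases of the host bodies at the same distance (squares). The circles lie above the squares in all 6 distance classes, at 31.1% against 26.1% nearest to a promoter, where the whisker spans the square, and 22.9% against 12.9% farthest away. Genes that start outside their host body are included.

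By place of the start within the host, the shares with a peak ran from 19.8 to 36.0% for places with at least 50 members. The 5′-most TSS lay in the first intron of the host for 230 members, of which 30.9% had a peak, and in a later intron for 920, of which 27.4% did. It lay in a coding exon for 139 members (36.0% with a peak, interval 28.5 to 44.2%) and in an untranslated exon for 116 (19.8%, 13.6 to 28.0%). The interval of coding exons just misses those of untranslated exons and of members without a host (14.9 to 28.4%). These are the highest and the lowest shares, set side by side after they were seen, so the counts do not set coding exons apart. The place is that of the 5′-most TSS, while the peak may lie at any basic TSS. Another 299 began beyond the 3′ end of the host and ran into it from there, and 23.4% of these had a peak, with a median signal of 6.54, against 5.09 in later introns. Along the host body from its start to its end, the shares in 5 stretches of equal length were 30.1, 27.7, 31.2, 26.6 and 26.5%, with overlapping intervals. In the promoter-sharing set, by comparison, 77.4% of starts in a first intron and 81.2% of those beyond the 3′ end had a peak.

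CpG content around the start went with the mark in both sets. The observed over expected CpG ratio in the 500 bp on each side of the TSS had a median of 0.262 in stand-alone members with a peak, 0.224 in those without, and 0.732 in promoter-sharing genes with a peak. A ratio of 0.6 or more, the usual bound for a CpG island, was found in 66 stand-alone members (3.39%), against 501 promoter-sharing ones (59.3%). Of these 66, 39 (59.1%) had a peak, against 483 of the other 1880 (25.7%), a difference of 33.4 points (21.2 to 44.6). Within that class 89.4% of promoter-sharing genes had a peak, and below a ratio of 0.3 it was 22.9% of stand-alone members and 36.1% of promoter-sharing genes. The stand-alone shares were the lower in all 3 CpG classes, with the gap widest at 0.3 to 0.6, where they were 33.1% and 71.2%.

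**Figure D4:**
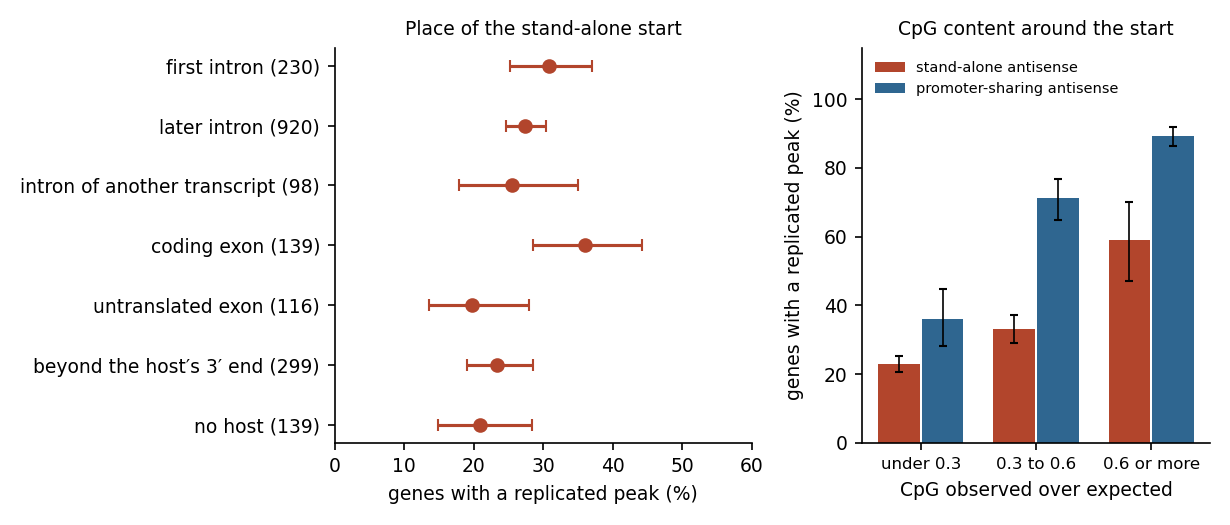
Percentage of genes with a replicated peak, by place of the stand-alone antisense start in its host (left, number of genes in brackets, places with at least 50 genes) and by CpG observed over expected around the start (right, stand-alone and promoter-sharing bars side by side). Whiskers are 95% Wilson intervals. Places range from 19.8 to 36.0%, while the stand-alone share is 22.9% in the lowest and 59.1% in the highest CpG class.

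Short promoter words were counted in the 300 bp from 250 before to 50 after the TSS, on both strands, and a match is a description, not a bound site. None of the words given contains another. The counts are not adjusted for base composition, which differs between the sets. Median GC content around the TSS was 47.4% in stand-alone antisense, 57.4% in promoter-sharing antisense and 55.2% in coding genes. The GC box GGGCGG, recognised by Sp factors, was in 16.3% of stand-alone members with a peak and 9.13% of those without, against 52.5% of promoter-sharing genes with a peak and 44.9% of all coding genes. The E-box CAGATG, read by neuronal bHLH factors, was in 24.3% of stand-alone members with a peak and 24.9% of those without. Promoter-sharing genes held it in 12.3% with a peak and 19.5% without, and coding genes in 14.6%. The TATA box TATAAA was in 10.5% of stand-alone members with a peak and 14.7% of those without, in 4.76% and 9.23% of promoter-sharing genes with and without a peak, and in 12.5% of coding genes. The CRE TGACGTCA was in 1.15% of stand-alone members with a peak and 0.983% of those without, and in 2.50% of coding genes. The word TGANTCA takes in the AP-1 site but allows any base at its centre, so not every match is an AP-1 site. It was in 11.1% of stand-alone members with a peak and 9.69% of those without. Promoter-sharing genes held it in 4.61% with a peak and 7.69% without, and coding genes in 6.70%.

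The strongest stand-alone starts were picked by their signal, which is thus high by that choice. Frmd8os runs from beyond the 3′ end of Frmd8 into it, and its region at chr19:5839383-5851523 had a signal of 33.0 and a width of 12141 bp. Pool C gave 36.9 and pool D 24.8, against 5.94 at the promoter of Frmd8 in the replicated list. The same region spans the start of Neat1, the non-coding scaffold of nuclear paraspeckles, so the peak cannot be assigned to Frmd8os alone.

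A830082K12Rik, opposite the patterning transcription factor gene Nr2f1, had a signal of 30.4 over 11018 bp at chr13:78201721-78212738, against 18.8 at the Nr2f1 promoter. Its basic starts are 2617 bp or more from a coding TSS, but a non-basic transcript of it starts 19 bp from an Nr2f1 TSS. In all, 14 stand-alone genes have such a further start within 1 kb of a coding TSS, of which 3 had a peak, and 8 have one at 1 to 2 kb, of which 3 did. 2900060B14Rik, in intron 2 of 41 of Clasp1, which encodes a microtubule plus-end protein, had a signal of 29.4 with the summit 106 bp upstream of its TSS. A non-basic Clasp1 transcript and the non-coding Gm22710 start at the same region, and the Clasp1 promoter itself had 16.8. Its region spans chr1:118456231-118460183.

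The other strong starts given here exceeded the promoter of their host, where they had a host. 1700113A16Rik, beyond the 3′ end of the activity-dependent factor gene Mef2d, had a signal of 27.6 at chr3:88176882-88178702 with no other start nearby, against 17.2 at the Mef2d promoter, and 29.6 in pool C and 19.3 in pool D. Gm13091, in intron 11 of the corepressor gene Rere, had 26.8, against 23.5 at the Rere promoter. Its summit lay 1162 bp upstream of the TSS, and a non-basic Rere transcript starts at its region. Gm16897, beyond the 3′ end of Cd34, had 24.0, against 9.12 at the Cd34 promoter, and the non-coding A330023F24Rik also starts at its region. Fbxl12os, which has no overlapping host by this rule, had 29.0 at a region where Gm48069 also starts. Gm12758, opposite 4931406P16Rik, had 24.0, against 12.9 at the promoter of that host, at a region where Gm12762 also starts. Each of these had a peak in both pools.

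For 3 of the 12 members of highest signal the value was that of the host promoter, because the same peak lay within 1 kb of both starts. They were Gm16229 at Nab2, a corepressor of Egr factors (25.1), Gm41361 at Pdgfb, a growth factor (24.4), and AC139027.2 at Ttc39c (24.1), which had 26.5 in pool C and no peak within 1 kb in pool D. For 33 of the 438 members with a peak and a marked host, the strongest peak was also one of the host promoter, though not always its strongest. In 65 of the 438, the antisense start had the higher signal.

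**Figure D5:**
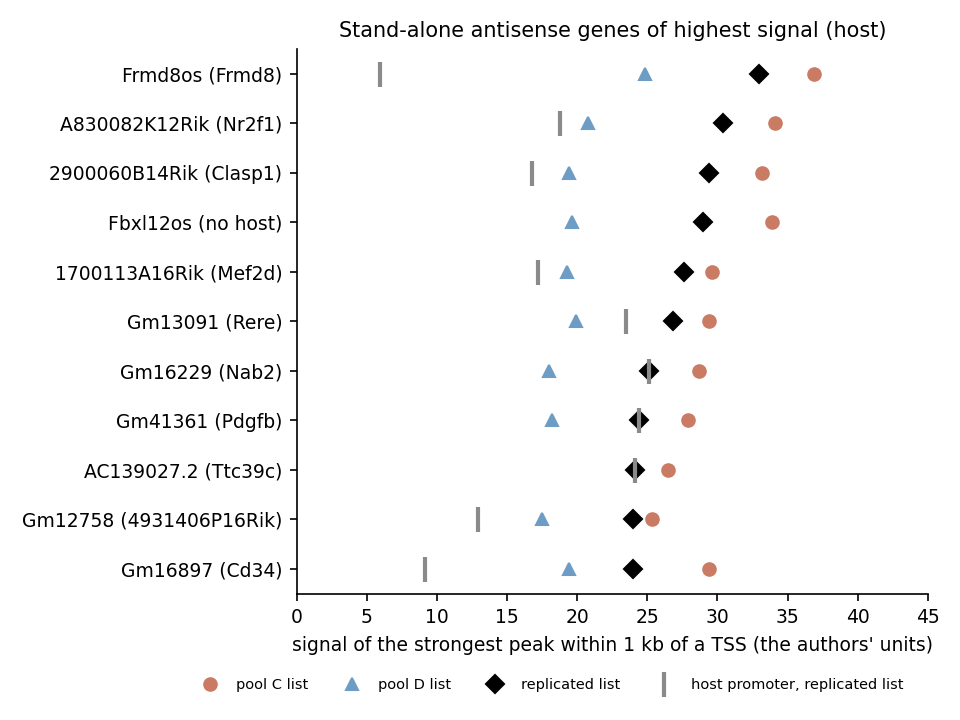
Signal of the strongest peak within 1 kb of a TSS (horizontal axis, the authors' units) for 11 of the 12 stand-alone antisense genes of highest signal, with the host in brackets: the replicated list (diamonds), pool C (circles), pool D (triangles) and the host's own promoter in the replicated list (grey bars). Diamonds run from 24.0 to 33.0, and 3 of them coincide with the bar of the host. AC139027.2 has no triangle, since pool D had no peak within 1 kb of its start.

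Of the 6 widest regions, 5 also reached within 1 kb of a TSS of the host. AC132148.1, in the first intron of Dagla, the enzyme that makes the endocannabinoid 2-AG, lay at a region of 22814 bp, the widest, with a signal of 18.4 that was also that of the Dagla promoter. It was 22886 bp wide in pool C and 20410 bp in pool D, while the other 5 were much narrower in pool D. Gm11266 at the transcription factor gene Nfib lay at 18907 bp (18858 bp in pool C and 6362 bp in pool D), with a signal of 22.6 in the replicated list, 36.5 in pool C and 11.5 in pool D. 1700110K17Rik at the cholesterol transporter gene Gramd1b lay at 16095 bp, with 17534 bp in pool C and 1185 bp in pool D. Gm45345 at Klhl2 lay at 16649 bp, with 16684 bp in pool C and 5351 bp in pool D, and had a signal of 7.96, against 23.4 at the strongest Klhl2 promoter peak. Gm12272, in intron 7 of the endocytic adaptor gene Epn2, lay at 14638 bp (14688 bp in pool C and 3765 bp in pool D) with no other start near it, and its signal was 9.12 in the replicated list, 12.7 in pool C and 6.55 in pool D. Pitpnm2os2, opposite the lipid transfer gene Pitpnm2, lay at 14251 bp with a signal of 18.8, but its strongest peak spanned 4193 bp with 10.5 in pool C and 1981 bp with 5.28 in pool D.

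Members with a given gene name and a strong peak lay at genes of varied function. At Chn1, which encodes the Rac-inactivating chimaerin of neurons, Chn1os3 had a signal of 18.5 beyond the 3′ end of the host, with 20.7 in pool C and 14.1 in pool D, while Chn1os1 shared the Chn1 promoter region of 19.9 over 8078 bp. Rab10os, at the gene of the vesicle GTPase Rab10, had 13.3, with 13.9 in pool C and 10.3 in pool D, and its start is 74054 bp from the nearest coding TSS. Zfhx2os, opposite a homeobox gene, had 13.1, with its summit 112 bp downstream of the TSS, and Chrna1os, with no host by this rule, had 13.4. Ict1os at Mrpl58 had 21.2, with 23.5 in pool C (percentile 97.3 of that list) but 3.78 in pool D (percentile 27.1). Atcayos at Atcay had 20.7, Mypopos at Mypop 15.7 and Snhg7os 15.1, each with a peak in both pools. Of these, Ict1os, Atcayos, Mypopos and Snhg7os lay at regions with a start of another gene or of a further transcript of the host. Among named members in alphabetical order, Acss2os, Aknaos, Arhgap15os, Arhgap20os, Arhgap27os2 and Arhgap33os had no peak in any of the 4 lists. Of their 5 hosts, only Arhgap15 had no promoter peak.

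Members hosted by genes of neuronal function were grouped by lists of the host's role. Opposite transcription factor genes of forebrain neurons, 11 of 27 members (40.7%, 24.5 to 59.3%) had a peak, with Gm27197 at Lhx2, a cortical patterning factor, at 13.4. Opposite synapse genes 7 of 20 did, with Gm14372 at Shank2, a postsynaptic scaffold, at 10.6, Gm14964 at Nrxn2, a presynaptic adhesion protein, at 7.08, and 5031415H12Rik at Dlgap1 at 6.01, with no peak in pool D. Opposite receptor genes it was 2 of 5, with Gm14330 at the NMDA receptor subunit gene Grin2b at 4.34, where pool D had no peak. Opposite ion channel genes 5 of 16 had a peak, led by A330093E20Rik at Kcnn2 with 13.0, and Gm10848 and Gm13269, both in intron 2 of the calcium channel gene Cacnb2, had 9.20 and 9.02. Opposite axon guidance and adhesion genes 7 of 23 did, with Gm29083 at Nrp2, a semaphorin receptor, at 11.0, Gm10538 at Nfasc at 6.51 and Plxna4os1 at Plxna4 at 5.90. Opposite growth factor and activity genes 2 of 10 did, both at Ntrk2, the BDNF receptor gene, where Gm47423 had 3.93 and 4930415C11Rik 2.19, against 33.7 at the Ntrk2 promoter. The peak of 4930415C11Rik was in neither pool list, nor in that of both pools together. Opposite glial genes 0 of 2 did. With so few members in a list, each interval includes the 26.8% of all stand-alone members, and none of the lists is set apart by these counts.

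On hosts with several stand-alone members, some, all or none had a peak. Tenm4, a teneurin of synaptic adhesion, hosts 5, of which Gm15416 and Gm44633 lay at 1 region with a signal of 5.32. Sox5 and Immp2l, both with a promoter peak, also host 5 each, and 0 of the 10 had a peak. App, the amyloid precursor gene, hosts 3, of which Gm10791 in intron 14 had 5.28 and Gm49226 in the first intron 5.55, against 24.7 at its promoter. Zbtb20, a transcription factor gene of hippocampal pyramidal identity, hosts 3, with 10.6 at Gm19522 and 7.15 at Gm9968. Among the 168 hosts with 2 members, both were marked on 32 and neither on 93. Of the 336 members on those hosts 107 had a peak, and the share over all stand-alone members was 26.8%. Whether members of the same host go together was not tested. The hosts named here, the members opposite unmarked hosts, the imprinted genes and the antisense genes known from other settings were named after their values were seen.

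Opposite an unmarked host, 55 members had a peak, and the 4 strongest are given here. Gm32569, beyond the 3′ end of the matrix protein gene Dpt, had 23.4 at chr1:164897717-164900140, with 26.1 in pool C and 16.6 in pool D. Gm35823, in intron 60 of the axonemal dynein gene Dnah1, had 19.1, where a non-basic Dnah1 transcript also starts. Gm26670, beyond the retinal gene Rd3, had 16.7, and Gm14291, in intron 9 of the prostacyclin synthase gene Ptgis, had 14.4. All 4 had a peak in both pools.

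Of the imprinted antisense genes, Kcnq1ot1 had a peak at percentile 80.5 of the replicated list by signal and Airn at percentile 31.0. Kcnq1ot1, in intron 11 of 15 of the unmarked Kcnq1, had 7.98 over 1325 bp at chr7:143295242-143296566, with 9.85 in pool C and 5.24 in pool D. Airn, in intron 2 of 47 of Igf2r, had 3.47 over 337 bp, with 4.10 in pool C and no peak in pool D, against 6.78 at the Igf2r promoter. The peak lists do not separate the parental alleles of the F1 animals.

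Of 16 antisense genes known from other settings, 8 had none and 8 had a peak, namely Kcnq1ot1, Airn and Zfhx2os, given above, Nkx2-2os with 7.17, and Egfros, Dnmt3aos, Kdm6bos and Junos. The share was 26.8% over all stand-alone members and 33.8% over all genes. Since the 16 were named after their values were seen, their count says nothing about known antisense genes as a group. Without one were Dlx6os1, of the interneuron locus of Dlx6, Tsix, the antisense of Xist, Mhrt, first described in heart, Nron, Dnm3os, Hoxaas3, Hoxb5os and Hoxb3os. With a peak, Egfros had 5.09 in the first intron of the growth factor receptor gene Egfr, Dnmt3aos 4.90 in intron 3 of the DNA methyltransferase gene Dnmt3a, and Kdm6bos 4.31 in intron 17 of the histone demethylase gene Kdm6b. Junos had 3.56, against 24.3 at the promoter of the activity gene Jun, and no peak in pool D. A non-basic transcript of Junos starts 688 bp from a coding TSS. On the X chromosome 1 of 28 stand-alone members (3.57%, 0.633 to 17.7%) had a peak, against 27.2% on the autosomes, and for all genes the shares were 18.4% on X and 35.6% on the autosomes.

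The strongest promoter-sharing starts, for scale, were those of 1600020E01Rik at Pcbp1 with 50.8, B230369F24Rik at Cox20 with 44.8, Zfp335os at Zfp335 with 44.3, 2810454H06Rik at Gpr19 with 43.8 and Sp3os at Sp3 with 43.1. Each lay within 1 kb of a coding TSS, and each exceeded the highest stand-alone signal of 33.0. At the distance bound, the members just outside 2 kb were Gm10876, at 2010 bp from Pck2, with a signal of 12.9 that was also that of the Pck2 promoter, Nkx2-2os, at 2018 bp, with 7.17, and Gm15655, at 2018 bp from Maf, with 3.94. Just inside it were Ctrcos at 1962 bp and Gm29570 at 1987 bp, both without a peak, and Gm48960 at 1987 bp with 11.0.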

How the data were processed

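H3K27ac ChIP-seq peaks of the 2 pools were read from 4 lists in narrowPeak format, deposited by the authors on mm10. For the aligner and the peak caller, names and versions were not given in the sources used here. Signal per peak is the authors' deposited value, with its scaling not given. The −log10 q-value per peak was likewise deposited by the authors and used only as a filter of 5 in an alternative. Without read totals the depth per sample is unknown. No peak lay beyond a GRCm38 chromosome end.

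TSSs came from GENCODE M21, with basic transcripts deciding the classes. Place and 5′-most TSS refer to the antisense gene's own strand, and a member's signal is that of its strongest region. A region counts if any of its bases is within 1 kb of a TSS, so its summit can lie farther away. Shares carry 95% Wilson intervals and differences Newcombe intervals, and no p-value was computed. The window search and intervals were tested on simulated data.

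Members and lists were chosen with earlier results of these data known. Named genes were the 12 members of highest signal, the 6 widest, up to 12 with a given name and a peak, 6 without in alphabetical order, up to 3 per host list, the 5 strongest promoter-sharing genes and 3 on each side of the 2 kb bound. Some genes this rule takes are left out here. Others are said to be named after their values were seen. Cell type markers were checked at promoters. Alternatives were the other lists, each pool alone, windows of 500 bp and 2 kb, the summit in place of any base, a 5 kb bound, starts of all coding transcripts, other overlaps and any marked opposite-strand gene, with further antisense starts added after seeing the data. Python 3.11.15, numpy 2.4.6 and matplotlib 3.10.9 were used.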

Additional observations from a re-analysis of the deposited data

How the results depend on the processing

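Of 113 alternative values of 10 results, none reversed and 20 moved beyond the spread of the 2 pools. The other 93 stayed within that spread or, for the 2 differences, kept an interval that excludes 0. The cause was not tested except where the construction gives it. The 5 kb bound and the further antisense starts alone leave the promoter-sharing set as it is, so its values there could not move. For the share overlapped in both pool lists the spread, 31.8 points, came from overlaps with 1 pool list each. For the share near a coding TSS it was 0.149 points. The difference between stand-alone and promoter-sharing shares ran from -54.0 to -46.2 points, and that between members of marked and unmarked hosts from 8.37 to 21.6 points.

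With each pool list alone, the stand-alone share was 19.0 to 27.1%, the promoter-sharing share 72.9 to 78.1%, the median signal of stand-alone regions 5.03 to 6.15, their median width 907 to 1310 bp, that of promoter-sharing regions 1142 to 1711 bp, and the stand-alone share near a coding TSS 5.33 to 5.54%. Of the pool D regions 96.7% were overlapped by pool C, and of the pool C regions 51.8% by pool D. With the summit within the window, 20.9% of stand-alone and 71.3% of promoter-sharing genes had a peak. With starts of all coding transcripts, 70.8% of promoter-sharing genes did, also where further starts of the antisense gene were used.

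The share of stand-alone regions near a coding TSS, 5.78%, was 5.36% in the list of both pools together, 6.31% with −log10 q of 5 or more, 5.48% with a window of 500 bp, 7.84% with 2 kb, 1.29% with the bound at 5 kb, 5.40% with further antisense starts, 5.36% with further starts of both genes, and 0 with the summit, which cannot be within 1 kb of both starts.

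No paired analysis was possible because the peak lists join the technical replicates of each pool, and the pools form no groups to compare. These results rest on 2 pools of unknown depth, and 32.3% of stand-alone regions were overlapped over at least 50% of their length in pool C alone.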
